A study of Danio rerio with 4 samples.

Results

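The creatine kinase genes of zebrafish are described here in whole embryos kept with SYP-3343, known here by this code name alone, and in unexposed embryos of the same age. They were the rows whose identifier carries a creatine kinase name in the gene name table, which gave 7 of the 28290 gene models counted: *ckma*, *ckmb*, 2 copies named *CKB*, *CKMT1B* (the table's name for the zebrafish gene *ckmt1*) and 2 copies named *CKMT2*. The table does not give the paralog letter of the *CKB* and *CKMT2* copies, so each is named with its Ensembl identifier. The family was selected on the difference in read counts between exposed and control embryos in these same libraries. Its values in that comparison are therefore a description, given with their errors and without p-values. The exposed group was wild-type embryos kept in 8 µg/L SYP-3343 between 3 and 24 h after fertilization. The control group was wild-type embryos labelled untreated. Each group had 2 libraries of poly-A RNA, labelled biological replicates 1 and 2, and 40 embryos are mentioned in the design without a statement if that is per library or per group. Nothing in the labels says from which clutches or tanks the replicates came, so the spread between them may be technical in part. RNA of a whole embryo is a mixture, and fewer cells of a type cannot be told apart from less RNA per cell.

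Creatine kinases move a phosphate group between ATP and creatine, which gives cells with sudden energy demand a store of phosphocreatine close to where ATP is spent. Vertebrates have cytosolic forms, a muscle type and a brain type, and mitochondrial forms that sit between the inner and outer mitochondrial membranes and charge creatine with newly made ATP. The muscle type is abundant in fast skeletal muscle and binds in part to the M-line of the sarcomere. Of the mitochondrial forms, the ubiquitous one (CKMT1) is known in mammals from brain and other tissues, and the sarcomeric one (CKMT2) from heart and skeletal muscle.

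The members of the family went in different directions, also between copies of 1 form. Both muscle-type genes and 1 *CKMT2* copy were higher in exposed embryos. The brain-type *CKB* copy ENSDARG00000043257, at the border of the threshold, and *CKMT1B* were lower, and the other *CKMT2* copy, ENSDARG00000069615, was 5.04-fold lower. The groups overlapped for the other *CKB* copy, ENSDARG00000069752. All 7 genes passed the filter on low counts. In the fit over all 22647 genes tested, 3 of the 7 were past an adjusted p of 0.05 as higher and 3 as lower, where 16.6% and 15.3% of all genes tested were past it in those directions (31.9% in either). The 3 higher became 0 without control replicate 1, and 1 without control replicate 2, without SYP-3343 replicate 2 or with library size alone. Both exposed libraries lay above both controls for 3 members and below them for 3, against 32.2% and 33.7% of all genes tested (66.0% in either direction). The median log2 fold change of the 7 genes was -0.12, and that of all genes tested was -0.01. Since the family was selected on this same comparison, these counts are no evidence about the family. The values of each member below come from that comparison too, so whether a member was past the threshold is a description as well.

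**Figure D1:**
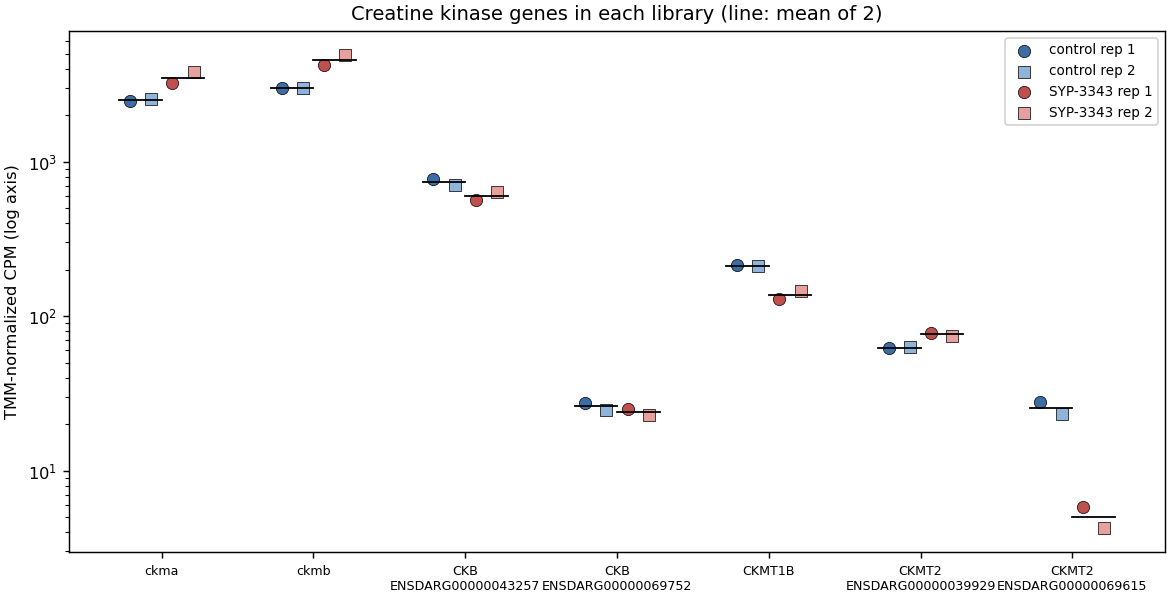
TMM-normalized CPM (log axis) of the 7 creatine kinase genes in each of the 4 libraries; short lines are the means of the 2 libraries of a group. *ckma*, *ckmb* and *CKMT2* copy ENSDARG00000039929 lie higher in both SYP-3343 libraries, and *CKMT2* copy ENSDARG00000069615 drops from 27.8 and 23.1 to 5.81 and 4.24 CPM.

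The libraries held 46165614 to 59054470 counts, and 24183 to 24806 gene models had at least 1 count in a library. Levels below are CPM, counts scaled to a fixed library total, after TMM, a method that corrects for a few abundant genes taking a larger part of 1 library. The TMM factors were above 1 in both controls and 0.923 and 0.86 in the SYP-3343 libraries, so a scaling by library size alone shifts every gene down, with a median over all genes tested of -0.35 in place of -0.01 on the log2 scale. It turned 3770 genes past the threshold as higher and 3455 as lower into 1406 and 9382. A fold of a family member has to be read against that shift. Transcript lengths were not available, so the ranks, shares and ratios of different genes below compare numbers of reads, not of transcripts.

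*ckma* (ENSDARG00000035327) encodes a muscle-type subunit. It stood at 2473 and 2544 CPM in control replicates 1 and 2 and at 3218 and 3784 CPM in SYP-3343 replicates 1 and 2. Both exposed libraries were above both controls, and the 2 exposed libraries lay further apart than the 2 controls. The group means were 2509 ± 50.3 and 3501 ± 400 CPM (SD, n = 2 per group), a log2 fold change of 0.48 ± 0.14 (SE), or 1.40-fold. The excess over control depended on the scaling. With library size alone it was 0.14 on the log2 scale, and *ckma* was then not past the threshold, and the same held when control replicate 1, control replicate 2 or the second SYP-3343 library was left out (log2 fold changes 0.46, 0.50 and 0.36).

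*ckmb* (ENSDARG00000040565) encodes the other muscle-type subunit and had a similar pattern. Its levels were 2975 and 2991 CPM in the controls and 4210 and 4904 CPM in the SYP-3343 libraries. The controls were nearly equal, and the groups did not overlap. The log2 fold change was 0.61 ± 0.15, or 1.53-fold, and 0.27 with library size alone. Without control replicate 1 or control replicate 2 the log2 fold changes were 0.61 and 0.62, and *ckmb* was no longer past the threshold. Reads of these closely related copies could have been split between them by the counting. The ratio of *ckmb* to *ckma* counts, which no scaling touches, was 1.203 and 1.175 in the controls and 1.308 and 1.296 in the exposed libraries. *ckmb* thus gained slightly on *ckma* in both exposed libraries.

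By number of reads both muscle-type genes were among the most abundant of the embryo. *ckmb* ranked 29 and 21 by count in the control libraries and 25 in both exposed ones, and *ckma* ranked 36, 32, 33 and 33 in the same order. The 7 genes together took 334963, 440767, 372845 and 411157 counts, or 0.726% and 0.746% of all counts in the controls and 0.760% and 0.823% in the SYP-3343 libraries. The share of the whole family was thus a little above the controls in each exposed library, with the larger part of it in 2 genes.

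The *CKB* copy ENSDARG00000043257 encodes a brain-type subunit, the form known from brain and other tissues outside skeletal muscle. It was counted at 772 and 703 CPM in the controls and at 565 and 636 CPM in the SYP-3343 libraries. Both exposed libraries were below both controls, by a margin smaller than the distance between the 2 controls. Its log2 fold change was -0.30 ± 0.11, a 1.23-fold lower level, and -0.63 with library size alone. With the replicate number fitted as a block this gene, like *ckma* and *ckmb*, was not past the threshold. It lay at the border of the threshold. It was not past it with RLE factors, with edgeR's legacy quasi-likelihood fit, or when control replicate 1, control replicate 2 or the first SYP-3343 library was left out (log2 fold changes -0.23, -0.36 and -0.21). The second *CKB* copy, ENSDARG00000069752, had 27.6 and 24.8 CPM in the controls and 25.2 and 22.9 CPM in the exposed libraries. Here the groups overlapped, and the log2 fold change of -0.12 ± 0.11 was not past the threshold, although with library size alone it was, at -0.45. The first copy held 28.0 and 28.3 times the counts of the second in the controls, and 22.4 and 27.8 times in the SYP-3343 libraries.

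*CKMT1B* (ENSDARG00000016598) encodes the ubiquitous mitochondrial form. Its levels were 213 and 210 CPM in the controls and 130 and 146 CPM in the SYP-3343 libraries. The controls differed by less than the exposed libraries, and both exposed libraries were far below them. The group means were 211.8 ± 2.30 and 137.8 ± 11.7 CPM (SD, n = 2 per group), a log2 fold change of -0.62 ± 0.09, or 1.54-fold lower. Every scaling, tool and left-out library gave the same direction, from -0.53 without SYP-3343 replicate 1 to -1.10 when scaled to fast muscle genes, and kept *CKMT1B* past the threshold. Library size alone and the fast muscle scaling lower all genes, so they could not have reversed this direction. The counts of *CKMT1B* per count of both *CKB* copies were 0.267 and 0.289 in the controls and 0.219 and 0.222 in the exposed libraries. *CKMT1B* was thus lower against the brain-type genes as well.

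The 2 genes named for the sarcomeric mitochondrial form went apart. *CKMT2* copy ENSDARG00000069615 had 1419 and 1555 counts in the controls and 263 and 182 in the SYP-3343 libraries, with exact 95% Poisson intervals of 232.2 to 296.8 and 156.5 to 210.4 for the last 2 that cover counting error only. These were 27.8 and 23.1 CPM in the controls against 5.81 and 4.24 CPM in exposed embryos. The replicates of a group differed by 0.834-fold and 0.73-fold (replicate 2 over 1), which is small beside the distance between the groups. Its log2 fold change was -2.33 ± 0.15, and leaving out each library in turn gave -2.58 to -2.13. Ranked from the lowest log2 fold change of all genes tested, this gene was number 158. *CKMT2* copy ENSDARG00000039929 had 61.8 and 63.3 CPM in the controls and 77.9 and 74.5 CPM in the exposed libraries, above both controls, for a log2 fold change of 0.28 ± 0.09. That small excess was not firm. It was -0.05 with library size alone, and it was not past the threshold with upper-quartile factors (0.21) or without control replicate 1 (0.27), SYP-3343 replicate 1 (0.25) or SYP-3343 replicate 2 (0.31).

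Ratios within a library do not depend on scaling, and they are given here for the *CKMT2* copies. Reads that match both copies could have been divided between them by the counting, which was not examined. The copy ENSDARG00000039929 had 2.23 and 2.74 times the counts of the copy ENSDARG00000069615 in the controls, and 13.4 and 17.6 times in the SYP-3343 libraries. In the controls the lower copy made up 9.16% and 7.80% of all mitochondrial creatine kinase counts, and in exposed embryos 2.72% and 1.89%. *CKMT1B* remained the larger part of them, with 70.4% and 70.9% in the controls and 60.8% and 65.0% in the exposed libraries.

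**Figure D2:**
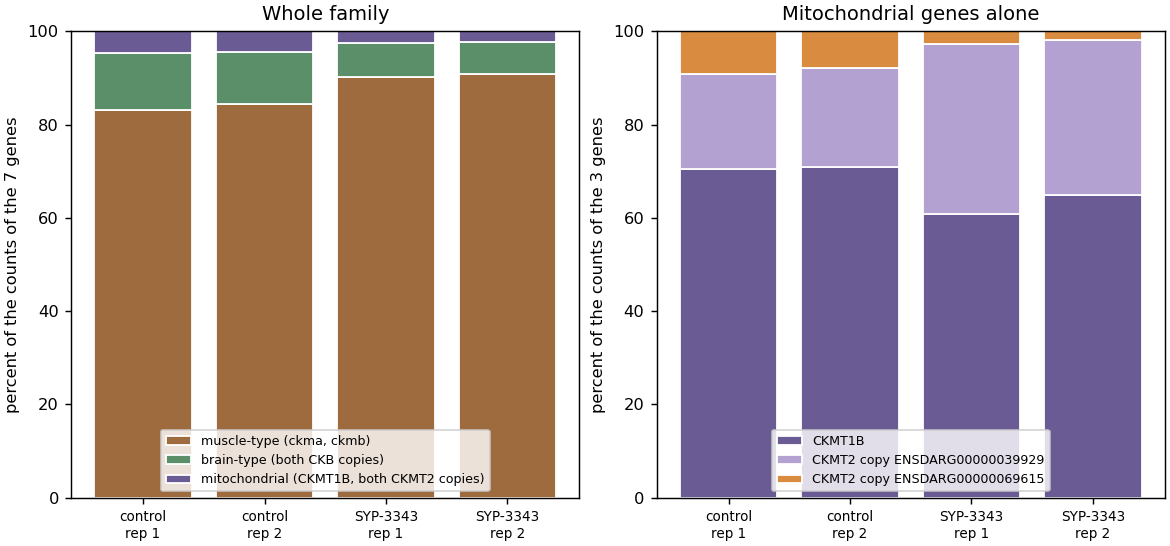
Stacked bars of the percent of counts taken by each form of creatine kinase in the 4 libraries (left, all 7 genes) and by each mitochondrial gene (right, 3 genes). Muscle-type genes go from 83.2% and 84.4% in the controls to 90.2% and 90.8% in the SYP-3343 libraries, and *CKMT2* copy ENSDARG00000069615 shrinks within the mitochondrial genes.

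The makeup of the family shifted toward the muscle type. Muscle-type genes took 83.8 ± 0.860% of the family's counts in controls and 90.5 ± 0.374% in exposed embryos (SD, n = 2 per group). Brain-type genes went from 11.7 ± 0.786% to 7.03 ± 0.204%, and mitochondrial genes from 4.57 ± 0.0733% to 2.47 ± 0.170%. For each form the gap between the groups was larger than the distance between replicates. Muscle-type counts were 6.81 and 7.60 times the brain-type counts in the controls and 12.6 and 13.2 times in exposed embryos. They were 18.0 and 18.7 times the mitochondrial counts in the controls and 34.9 and 38.7 times in exposed embryos. Shares add up to a whole, so a larger share of one form makes the others smaller.

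**Figure D3:**
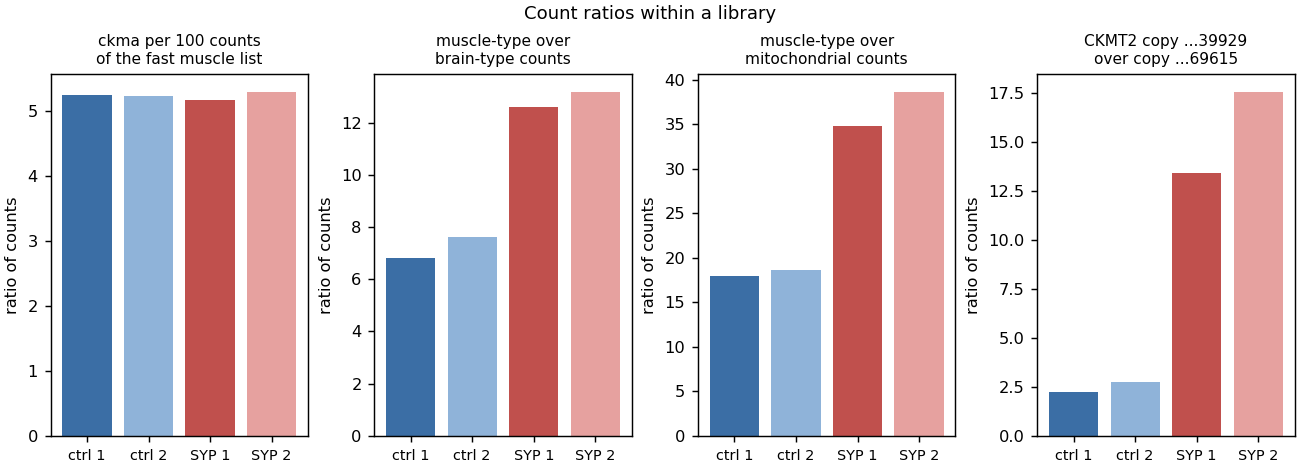
Ratios of counts within each of the 4 libraries (bars start at 0, ctrl is control and SYP is SYP-3343). *ckma* per 100 counts of fast muscle genes stays between 5.175 and 5.297, while the muscle-type over brain-type and over mitochondrial ratios and the ratio of the *CKMT2* copies are higher in both exposed libraries.

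The muscle-type genes were next set beside a list of fast muscle genes, since that tissue is where they are known to be abundant. The list was drawn up for contractile, calcium-handling and glycolytic genes of fast fibres and held 51 gene identifiers, of which 1 was at 0 in every library. Of the symbols searched for it, *mylpfa*, *mylpfb* and *mylz3* had no match by name. A name without its paralog letter brought in all its copies, such as both *RYR1* copies, which the slow muscle list below holds too. Its summed level was 47192 and 48575 CPM in the controls and 62176 and 71422 CPM in the SYP-3343 libraries. Abundant genes weigh most in this sum. Named for their level, *actc1b* had 6458 and 6732 CPM and *tpma* 4962 and 4774 CPM in the controls. A ratio to the list is therefore mostly a ratio to its abundant genes. *ckma* made up 5.24 per 100 counts of this list in each control and 5.175 and 5.297 in exposed embryos. The difference between the groups was thus no larger than that between the exposed replicates. *ckmb* had 6.30 and 6.16 counts per 100 in the controls and 6.77 and 6.87 in exposed embryos. Against the same list *CKMT2* copy ENSDARG00000039929 had 1.31 and 1.303 counts per 1000 in the controls and 1.25 and 1.04 in exposed embryos, and copy ENSDARG00000069615 had 0.588 and 0.476 against 0.0934 and 0.0593. When the libraries were scaled to the list, a choice made after the data were seen, the log2 fold changes were -0.0008 ± 0.10 for *ckma*, 0.13 ± 0.10 for *ckmb*, -0.19 ± 0.14 for the first *CKMT2* copy and -2.80 ± 0.20 for the second. Neither muscle-type gene was then past the threshold, and the median of all genes tested was -0.49. The part of muscle content in the muscle-type values was not tested.

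**Figure D4:**
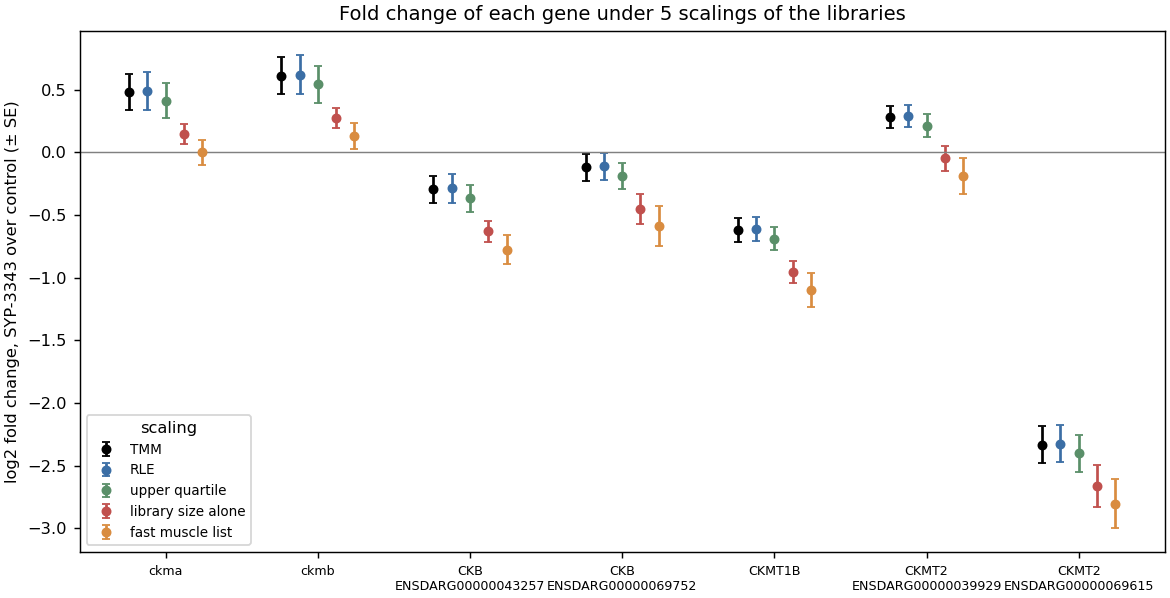
Log2 fold change (SYP-3343 over control, points, with SE as bars) of each creatine kinase gene under 5 scalings of the libraries. *ckma*, *ckmb* and *CKMT2* copy ENSDARG00000039929 approach or cross 0 with library size alone or scaling to fast muscle genes. Both *CKB* copies, *CKMT1B* and *CKMT2* copy ENSDARG00000069615 stay below 0 under all 5. Library size alone and the fast muscle scaling lower all genes (medians over all genes tested -0.35 and -0.49). Genes below 0 with TMM could therefore not cross it there.

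The list counts below are to be read beside all genes tested, of which 16.6% rose and 15.3% fell. Counts near those shares say nothing particular about a list. The lists were chosen with earlier results of these data known, so their counts and adjusted p are a description. In the fast muscle list, 23 of 50 tested genes rose, 7 fell and 20 did not pass, with a median log2 fold change of 0.30. The number that rose was 10 without control replicate 1, 14 without control replicate 2, and 10 without SYP-3343 replicate 2. With library size alone, 7 of the list rose and 16 fell, where 1406 of all 22647 genes tested rose and 9382 fell. The gene with the lowest adjusted p of this list, *tcap*, encodes the Z-disc protein telethonin and rose from 9.35 and 8.93 to 69.04 and 64.6 CPM (log2 fold change 2.87 ± 0.11, edgeR adjusted p = 3.38e-14). *TNNI2* copy ENSDARG00000035958, a gene for fast troponin I, fell from 57.9 and 49.3 to 25.7 and 25.9 CPM (log2 fold change -1.05 ± 0.10, edgeR adjusted p = 7.11e-08). *TNNI2* copy ENSDARG00000045592 fell from 3.68 and 2.56 to 0.375 and 0.442 CPM (log2 fold change -2.90 ± 0.38, edgeR adjusted p = 4.32e-06), and *PYGM* copy ENSDARG00000013317, for muscle glycogen phosphorylase, fell by 0.70 on the log2 scale (edgeR adjusted p = 4.15e-06).

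Copies of 1 name also went apart elsewhere in this list, as was seen after the values were known. *TNNI2* copies ENSDARG00000005841 (-2.00 ± 0.31) and ENSDARG00000013752 (-1.25 ± 0.29) and *tnnc2.1* (-2.66 ± 0.41), a troponin C gene, had negative log2 fold changes past the threshold. *TNNI2* copies ENSDARG00000029069 (0.42 ± 0.13) and ENSDARG00000029995 (0.45 ± 0.09) and *TNNC2* (0.48 ± 0.14) had positive ones past it. Copies ENSDARG00000005841 and ENSDARG00000013752 and *tnnc2.1* had few counts in the SYP-3343 libraries (31 and 41, 50 and 51, 13 and 18). Copy ENSDARG00000029069 had 84975 and 93076 there, and *TNNC2* 113802 and 127896. At closer levels, *TNNI2* copy ENSDARG00000035958 fell from 57.9 and 49.3 to 25.7 and 25.9 CPM. Copy ENSDARG00000029995 rose from 65.55 and 64.56 to 88.56 and 88.79 CPM. With 31.9% of all genes tested past the threshold, such pairs say nothing particular about the *CKMT2* copies.

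Genes for other muscle were also measured. Of slow muscle genes, 1 of 15 tested rose, 2 fell and 12 did not pass, with a median of -0.01 and a summed level of 2254 and 2196 CPM in the controls and 2492 and 2527 CPM in exposed embryos. The slow myosin gene *smyhc1* rose from 651 and 731 to 973 and 939 CPM (log2 fold change 0.47 ± 0.11, edgeR adjusted p = 0.00245), and did not pass without control replicate 1 (log2 fold change 0.39, edgeR adjusted p = 0.0718) or with library size alone (0.14, edgeR adjusted p = 0.225). With library size alone 0 slow muscle genes rose and 12 fell. The thick-filament gene *MYBPC1* (-0.58 ± 0.16) and the slow troponin T gene *TNNT1* (-0.70 ± 0.21) fell, but neither passed without SYP-3343 replicate 2 (log2 fold changes -0.51 and -0.46). Of heart muscle genes, 7 of 20 tested rose, 2 fell and 11 did not pass, with a median of 0.12 and a summed level of 836 and 809 CPM in the controls and 852 and 940 CPM in exposed embryos. With library size alone, which shifts all genes down, 2 heart genes rose and 8 fell. The natriuretic peptide genes *nppa* (1.18 ± 0.11) and *nppb* (2.21 ± 0.22), which heart muscle makes under load, and the calcium pump gene *atp2a2a* (0.45 ± 0.10, and 0.12 and not past the threshold with library size alone) rose, while the myosin light chain gene *myl4* (-1.09 ± 0.13) fell. The slow and heart lists share the *TNNI1* copies, and the slow and fast lists the *RYR1* copies. In the slow and heart lists 1 identifier, a *TNNI1* copy, was at 0 in every library.

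Muscle creatine kinase is bound at the M-line, and a list of 13 genes of the M-line and of myosin folding was measured beside it. Of these 2 rose, 5 fell and 6 did not pass, with a median of 0.04. With library size alone 2 rose and 7 fell. *SMYD1* copy ENSDARG00000009280, for a methyltransferase that helps assemble myosin in zebrafish, rose from 71.9 and 71.7 to 135 and 150 CPM (log2 fold change 0.99 ± 0.09, edgeR adjusted p = 4.09e-08), while *SMYD1* copy ENSDARG00000091253 fell (-0.44 ± 0.10). The ubiquitin ligase gene *trim63b* (0.90 ± 0.12) rose, and the myosin chaperone gene *UNC45B* (-0.76 ± 0.11) fell. Genes for structural proteins of the list were named after their values were seen. The *MYOM1* copies (0.25 ± 0.10 and 0.26 ± 0.10), *MYOM2* (0.20 ± 0.11) and the *TTN* copies (0.145 ± 0.13 and 0.04 ± 0.13) did not pass. *obscna* (-0.48 ± 0.14) and *obscnb* (-0.35 ± 0.12) fell. The number of this list that rose was 5 without control replicate 2 and 4 without SYP-3343 replicate 1. The number that fell was 3 without control replicate 2 and 3 without SYP-3343 replicate 2.

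Regulators of muscle fate were measured as well. Of 19 tested myogenic regulators 1 rose, 2 fell and 16 did not pass, with a median of -0.08, and their summed level was 321 and 323 CPM in the controls and 303 and 308 CPM in exposed embryos. *MYF5* (0.54 ± 0.18), an early factor of muscle fate, rose, and *MYOG* (-0.31 ± 0.10), a factor of differentiation, and *MEF2C* copy ENSDARG00000009418 (-0.39 ± 0.10) fell. Without control replicate 2, 3 rose and 3 fell, and with library size alone 0 rose and 10 fell. *MYF5* did not pass without control replicate 1 or either SYP-3343 library (edgeR adjusted p = 0.0943, 0.092 and 0.089), *MYOG* not without control replicate 1 or either SYP-3343 library (edgeR adjusted p = 0.0567, 0.179 and 0.0717), and *MEF2C* not without SYP-3343 replicate 1 (edgeR adjusted p = 0.0674). Without control replicate 2 the *PAX7* copy ENSDARG00000070818 (0.31 ± 0.12, edgeR adjusted p = 0.0505) passed at 0.43 (edgeR adjusted p = 0.0176).

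**Figure D5:**
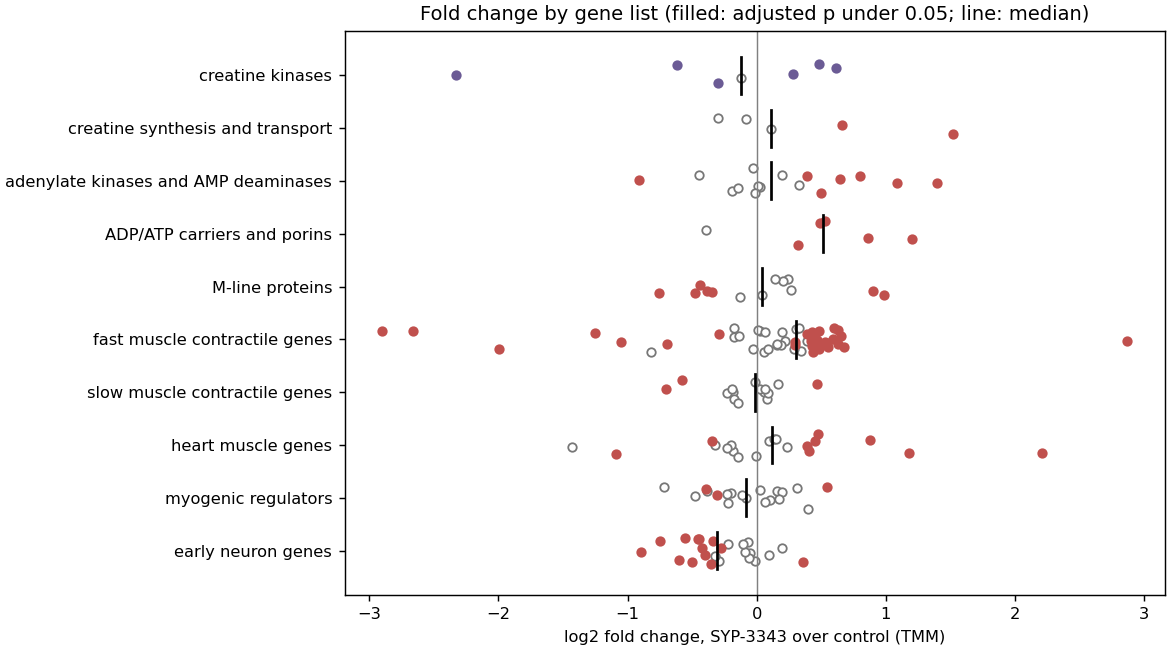
Log2 fold change (SYP-3343 over control, horizontal axis) of each tested gene, with the 7 creatine kinases on top and 9 lists below them; filled points had an adjusted p under 0.05 and black lines are medians. The medians run from -0.31 for early neuron genes to 0.51 for ADP/ATP carriers and porins, with -0.12 for the creatine kinases.

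Creatine itself is made by the enzymes *GATM*, which forms guanidinoacetate from arginine and glycine, and *GAMT*, which methylates that product. It enters cells through the transporter *SLC6A8*. Of the 5 genes for synthesis and transport 2 rose, 0 fell and 3 did not pass, with a median of 0.11. With library size alone 1 rose and 2 fell. *GAMT* rose from 363 and 319 CPM in the controls to 912 and 1039 CPM in exposed embryos (log2 fold change 1.52 ± 0.11, edgeR adjusted p = 1.35e-09). Both exposed libraries were more than 2-fold above both controls, and leaving out each library in turn gave 1.42 to 1.62. *GATM* had 579 and 517 CPM in the controls and 465 and 572 CPM in exposed embryos, with overlapping groups (log2 fold change -0.08 ± 0.11, edgeR adjusted p = 0.637). Its sign was not stable, with 0.01 without control replicate 1 and 0.07 without SYP-3343 replicate 1, and with library size alone it passed as lower (-0.42, edgeR adjusted p = 0.00117). *SLC6A8* had 16.3 and 19.02 CPM in the controls and 15.0 and 13.8 CPM in exposed embryos (log2 fold change -0.30 ± 0.12, edgeR adjusted p = 0.0604), and passed as lower without control replicate 1 (-0.40, edgeR adjusted p = 0.0154), with upper-quartile factors (-0.37) or with library size alone (-0.63). *SLC16A12* encodes a transporter known in mammals to carry creatine and guanidinoacetate. Its copy ENSDARG00000017773 rose from 9.23 and 7.64 to 12.6 and 13.97 CPM (log2 fold change 0.66 ± 0.14, edgeR adjusted p = 7.97e-04; 0.33 and not past the threshold with library size alone), and copy ENSDARG00000089885 (0.11 ± 0.10, edgeR adjusted p = 0.416) did not pass. The 2 steps of creatine synthesis thus had different outcomes, with the call in the second.

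Mitochondrial creatine kinase works beside the ADP/ATP carriers of the inner membrane and the porins of the outer one. Of these 6 genes 5 rose, 0 fell and 1 did not pass, with a median of 0.51. The carrier gene *SLC25A5* rose from 3485 and 3217 to 7300 and 8158 CPM (log2 fold change 1.21 ± 0.16, edgeR adjusted p = 6.33e-06). Its relative *SLC25A4* (0.53 ± 0.10) and the porin genes *VDAC2* (0.86 ± 0.11) and *VDAC1* (0.49 ± 0.10) rose as well. With library size alone 3 of the 6 rose and 1 fell, and *VDAC1* did not pass (log2 fold change 0.16, edgeR adjusted p = 0.118). *CKMT1B* and *CKMT2* copy ENSDARG00000069615 were thus lower while most genes of these transport partners were higher. The other mitochondrial member, *CKMT2* copy ENSDARG00000039929, was slightly higher as well (0.28 ± 0.09), an excess that depended on the scaling.

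Adenylate kinases, the other common enzymes that rebalance ATP and ADP, and the AMP deaminases that act on their product made up a list of 16 genes. Of these 6 rose, 1 fell and 9 did not pass, with a median of 0.11, while library size alone gave 3 that rose and 6 that fell. *AK1*, the cytosolic form known from muscle, rose from 424 and 377 to 602 and 649 CPM (log2 fold change 0.64 ± 0.10, edgeR adjusted p = 6.41e-05). *AMPD2* copy ENSDARG00000104491 (1.40 ± 0.11) rose, and *AMPD3* copy ENSDARG00000005800 (-0.91 ± 0.20) fell. When either SYP-3343 library was left out, 2 genes of the list fell.

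The brain-type genes and *CKMT1B* were set beside 24 genes of early neurons, of which 1 rose, 12 fell and 11 did not pass, with a median of -0.31. Their summed level was 4750 and 4720 CPM in the controls and 3427 and 3895 CPM in exposed embryos, and none was at 0. Tubulin genes weighed most in this sum. Named for their level, *tubb5*, *TUBA1A* and *tuba1c* had 824, 857 and 1001 CPM in control replicate 1. The tubulin gene *tubb5* fell from 824 and 834 to 404 and 489 CPM (log2 fold change -0.89 ± 0.11, edgeR adjusted p = 2.76e-06). *SNAP25* copy ENSDARG00000058117 (-0.75 ± 0.11), of synaptic vesicle fusion, *MAP1B* (-0.60 ± 0.09), of the axon's microtubules, and the neuronal factor *ISL1* (-0.50 ± 0.09) fell too. The 1 that rose, *ELAVL3* (0.36 ± 0.13, named after its values were seen), stood at 199.7 and 287 CPM in the controls and 289 and 334 CPM in exposed embryos. No gene of the list (0) rose once control replicate 1 or the second SYP-3343 library was left out, or with library size alone, where 20 fell. The part of neuron content in the lower levels of *CKB* and *CKMT1B* was not tested.

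For the 2 members with the largest change, the genes most like them were sought by the distance between centred log2 CPM values over the 4 libraries, among genes of similar level. This is a description over 4 points in which the group difference decides. Of 11628 genes compared with *CKMT2* copy ENSDARG00000069615, the nearest was *myhb*, a myosin heavy chain gene, at 39.0 and 34.0 CPM in the controls and 9.16 and 7.17 CPM in exposed embryos (distance 0.200). Also among the 3 nearest was *zgc:109965* (distance 0.267). For *CKMT1B*, among 3625 genes, the nearest were the motor protein gene *MYO5B* (distance 0.0213), the tubulin gene *tubb4bl* (distance 0.0411) and *RAC3* copy ENSDARG00000020795 (distance 0.0550), for a small GTPase. *tubb4bl* had 234 and 229 CPM in the controls and 138 and 155 CPM in exposed embryos.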

How the data were processed

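Poly-A RNA of 4 whole-embryo libraries was sequenced, and the values deposited by the authors are raw counts, whole numbers of reads for each gene model with no normalization. Per the labels' protocols, RNA was extracted with TRIzol and libraries were made with a NEBNext Ultra kit. Build GRCz11 and the tools featureCounts 1.6.2, HTSeq, DESeq2 1.14.1, HISAT2 and TopHat2 are named per the submitters' processing notes, which give none of them a role. The strand setting and the treatment of reads matching several copies were not stated there. Members and lists were chosen with earlier results of these data known.

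All 28290 models entered edgeR 4.0.16 in R 4.3.3: filterByExpr, TMM factors, and the quasi-likelihood F test (newer fit), two-sided, with Benjamini-Hochberg adjustment over 22647 genes and a threshold of 0.05. SE is the log2 fold change divided by the square root of F. The 9 lists held 168 symbols, of which 8 were not matched. A name given without its paralog letter took all identifiers of that name. Named were all members, up to 4 genes a list by adjusted p, all genes of creatine synthesis and transport, and 3 genes most like each of 2 members, within 2 log2 CPM units. Alternatives were no filter on low counts, scaling by library size alone, upper-quartile or RLE factors, a CPM of at least 1 in 2 libraries, DESeq2 1.42.0, limma-voom (limma 3.58.1), the replicate number as a block, and each library left out. Added after the data were seen were edgeR's legacy fit and a scaling to fast muscle genes. Some genes that this rule names are not reported here. Code was tested on simulated data. Counting error alone is covered by Poisson intervals.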

Additional observations from a re-analysis of the deposited data

How the results depend on the processing

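Directions of the 7 creatine kinase genes depended on scaling in 2 cases. *ckma* was -0.0008 when scaled to fast muscle genes, and *CKMT2* copy ENSDARG00000039929 was -0.0491 with library size alone and -0.19 when scaled to fast muscle genes. The family median moved to -0.45 and -0.59 under those scalings. By construction, library size alone lowers all genes. With it 1406 genes rose and 9382 fell in place of 3770 and 3455, and 1 creatine kinase was higher. In the lists it gave 1 higher and 2 lower for creatine synthesis and transport, 3 and 6 for adenylate kinases, and 3 and 1 for carriers and porins. It gave 2 and 7 for M-line genes, 7 and 16 for fast muscle, and 0 and 12 for slow muscle. For heart it gave 2 and 8, for myogenic regulators 0 and 10, and for early neurons 0 and 20. *SLC16A12* copy ENSDARG00000089885 (-0.22) and *PAX7* copy ENSDARG00000070818 (-0.0234) changed sign with it.

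For the other changes in counts of genes past the threshold the cause was not tested. Creatine synthesis and transport had 1 lower gene with upper-quartile factors. With a CPM of at least 1 in 2 libraries, 4 M-line genes and 2 myogenic regulators were higher. RLE factors gave 2 higher myogenic regulators, and DESeq2 gave 0 higher and 1 lower. No early neuron gene was higher (0) with upper-quartile factors, no filter, DESeq2 or the legacy fit. Without *ckmb*, the creatine kinase with most counts, in the denominator, the log2 ratio of shares was -0.57 for brain forms and -0.73 for mitochondrial forms, in place of -0.73 and -0.89. *ckmb* took 45.5% of the family's counts in controls and 51.2% in exposed embryos (means), so leaving it out raises both ratios by construction.

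Same-numbered libraries did not deviate together (r = -0.04 across 17187 genes, which are not independent replicates). This gave no sign that the numbers pair the libraries. With 2 libraries per group it cannot exclude a shared origin, on which the labels are silent. With the replicate block 1 creatine kinase was past the threshold as higher and 2 as lower. The genes that lost the call were *ckma* (0.48), *ckmb* (0.61) and *CKB* copy ENSDARG00000043257 (-0.30). With it 13 fast muscle genes and 2 myogenic regulators rose, and the other counts stayed within 1.5 times.

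Leaving out each library in turn gave 2873 to 3611 genes higher and 2483 to 3115 lower. Creatine kinases were 0 to 2 higher and 2 to 3 lower, with a median of -0.19 to -0.04. The lists gave, as higher and lower, 2 to 2 and 0 to 1 for creatine synthesis and transport, 4 to 6 and 1 to 2 for adenylate kinases, 4 to 5 and 0 to 0 for carriers and porins, 2 to 5 and 3 to 4 for M-line genes, 10 to 25 and 6 to 8 for fast muscle, 0 to 1 and 0 to 3 for slow muscle, 6 to 7 and 1 to 3 for heart, 0 to 3 and 0 to 3 for myogenic regulators, and 0 to 1 and 10 to 13 for early neurons. *GATM* ran from -0.2395 to 0.0653, with 0.0059 without control replicate 1 and 0.0653 without SYP-3343 replicate 1. The log2 ratio of shares was -0.80 to -0.66 for brain forms and -0.96 to -0.82 for mitochondrial forms. Depth limits the lowest members, down to 182 counts.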
